A study of Mus musculus with 6 samples.

Results

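Toll-like receptors are the family of membrane proteins by which macrophages detect microbial molecules. The 10 members described here are the entries of the deposited gene count table that GENCODE names Tlr1, Tlr2, Tlr3, Tlr4, Tlr5, Tlr6, Tlr7, Tlr8, Tlr9 and Tlr13, out of 55487 genes in the table. They were followed in TpMo-derived macrophages (3 libraries) and Ly6Chi-derived macrophages (3 libraries) of the mouse. Both kinds of macrophage were grown for 7 days with the growth factor CSF-1, at concentrations that the labels do not give per sample, from TpMos and mature Ly6Chi monocytes sorted out of bone marrow. The mouse strain, age and genotype are not given in the sources used here.

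Each receptor pairs a ligand-binding region of leucine-rich repeats with a cytoplasmic TIR domain, which recruits adaptors such as MyD88 and so activates NF-kB and interferon regulatory factors. Receptors at the cell surface bind lipids and proteins of microbes. TLR2 pairs with TLR1 or TLR6 to bind lipopeptides, TLR4 binds lipopolysaccharide and TLR5 binds flagellin. Endosomal receptors bind nucleic acids and depend on the chaperone UNC93B1. TLR3 binds double-stranded RNA, TLR7 and, as known from humans, TLR8 bind single-stranded RNA and its breakdown products, TLR9 binds unmethylated CpG DNA, and TLR13, which humans lack, binds bacterial ribosomal RNA. The comparison asked whether receptors of the endosome and of the surface differ between macrophages of the 2 origins.

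Tlr1 was the one receptor whose difference passed the test, and it was 2.37-fold higher in TpMo-derived macrophages. Of 9 members with enough counts to test, 1 rose and 0 fell (adjusted p under 0.05 in edgeR's quasi-likelihood test over the whole table). Among all 13140 genes tested, 6.54% rose and 5.79% fell by the same rule, or 12.3% in either direction, so a single call among 9 members is near the share of the whole table. DESeq2 and limma-voom also gave 1 member higher and 0 lower. At an unadjusted p under 0.05 there were 2 higher and 0 lower, the second being Tlr2 (edgeR adjusted p = 0.183). The share of all genes at that unadjusted threshold was not counted, so these 2 cannot be set against it. The endosomal receptor Tlr13 was the most abundant member in every library, and held 54.8 to 62.1% of the family's summed level in the TpMo-derived group and 61.4 to 66.0% in the Ly6Chi-derived group.

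The libraries held 23765773 to 33042094 counts on genes, of which 28975 to 38057 fell on the 10 receptors. All 8 macrophage markers were detected, Adgre1, Csf1r and Lyz2 among them, with a summed level of 34774 to 36644 CPM (counts scaled to the size of the library) in TpMo-derived and 29704 to 32311 CPM in Ly6Chi-derived libraries. Lyz2 made up most of that sum, at 25681 CPM in the TpMo-derived and 23319 CPM in the Ly6Chi-derived group. Levels of single markers are group means after edgeR's further scaling between libraries, which the sums did not have. Adgre1, Csf1r, Fcgr1 and Cd14 passed as higher in the TpMo-derived group (log2 fold changes of 1.20, 0.51, 1.96 and 0.75). Itgam passed as lower (-0.31, edgeR adjusted p = 0.0382), and Cd68, Lyz2 and Mertk did not pass (0.13, 0.14 and -0.14). Markers of some other cell types were also measured. Of 8 markers of plasmacytoid dendritic cells, which are rich in Tlr7 and Tlr9, 5 were at 0 in all libraries, Siglech among them, and the summed level was 3.03 to 3.93 CPM in the TpMo-derived and 6.41 to 8.92 CPM in the Ly6Chi-derived group. That order came from Runx2 alone (1.55 and 7.18 CPM), and the other 2 markers detected ran the other way, with Ccr9 at 1.17 and 0.330 CPM and Cox6a2 at 0.710 and 0.160 CPM. Of 11 neutrophil markers, Ly6g, Mpo and Retnlg were at 0, and the sum was 28.7 to 35.8 CPM in the TpMo-derived and 59.0 to 64.9 CPM in the Ly6Chi-derived group, nearly all from the collagenase gene Mmp8 (31.8 and 61.0 CPM). The part of these differences between the groups in the receptor results was not tested. Markers of mast cells and basophils were at 0 for 6 of 6, of conventional dendritic cells for 4 of 6 (sums up to 0.773 CPM in TpMo-derived and 0.783 CPM in Ly6Chi-derived libraries), and of T and NK cells for 5 of 6 (sums of 0 CPM in TpMo-derived and up to 1.37 CPM in Ly6Chi-derived libraries).

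Tlr1 and Tlr6 are neighbours on chromosome 5, 18467 bases apart on the minus strand (Tlr1 ENSMUSG00000044827.10 at 64924679 to 64933563, Tlr6 ENSMUSG00000051498.6 at 64952031 to 64960097, GRCm38). Their coding sequences were 75.6% identical over 2361 aligned bases of the GENCODE M21 transcripts. The identity was uneven. It was 62.3% over the first 300 bases of Tlr1, and 53.7 to 85.3% in the blocks of 300 from base 301 to 1500. It was 99.3% over bases 1501 to 1800, 98.7% over bases 1801 to 2100 and 78.2% over bases 2101 to 2385. The longest stretch without a difference ran for 229 bases (bases 1468 to 1696 of Tlr1, 1507 to 1735 of Tlr6). The first pair of lines shows the edge of that stretch, where a single base differs within 120 (bases 1408 to 1527 of Tlr1, 1447 to 1566 of Tlr6), and the second pair shows 120 bases past the last long shared stretch (2146 to 2265 of Tlr1, 2185 to 2304 of Tlr6), where 21 differ. Capitals mark the bases that differ between the genes. In the second pair nearly all of them lie in the later part of the window. Its first part is still near-identical, so the label past the block holds only for the later part.
Tlr1, within the near-identical block: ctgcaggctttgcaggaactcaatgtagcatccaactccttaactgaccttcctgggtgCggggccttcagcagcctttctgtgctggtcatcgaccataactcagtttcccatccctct
Tlr6, within the near-identical block: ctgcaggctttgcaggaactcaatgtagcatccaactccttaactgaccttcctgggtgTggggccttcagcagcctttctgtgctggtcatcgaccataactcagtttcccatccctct
Tlr1, past the block: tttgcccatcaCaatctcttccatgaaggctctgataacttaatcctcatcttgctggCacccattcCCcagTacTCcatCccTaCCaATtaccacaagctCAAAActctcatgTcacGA
Tlr6, past the block: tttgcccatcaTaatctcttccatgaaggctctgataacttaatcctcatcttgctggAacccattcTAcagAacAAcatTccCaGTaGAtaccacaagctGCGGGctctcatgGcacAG

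These sequences bear on the counts of both genes, because reads of 51 bases that map to several places were by default not counted. Of all windows of 51 bases in the transcripts of Tlr1, 15.2% also occurred in transcripts of other genes, 238 in number, and 13.4% occurred in Tlr6. Of those of Tlr6, 12.1% occurred in Tlr1. A mate in a shared stretch can still be placed by its partner, and how many reads were lost was not measured. The other members shared little. No window of Tlr2, Tlr5, Tlr7, Tlr8, Tlr9 or Tlr13 occurred in another gene's transcripts, and 0.198% of those of Tlr4 did. For Tlr3 the share was 5.26%, all with Gm45542, a gene that overlaps Tlr3 on the opposite strand. With strand ignored and no option for overlaps, reads over both genes were by default counted for neither. The 0 counts listed for Gm45542 in every library therefore do not show that it was silent.

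**Figure D1:**
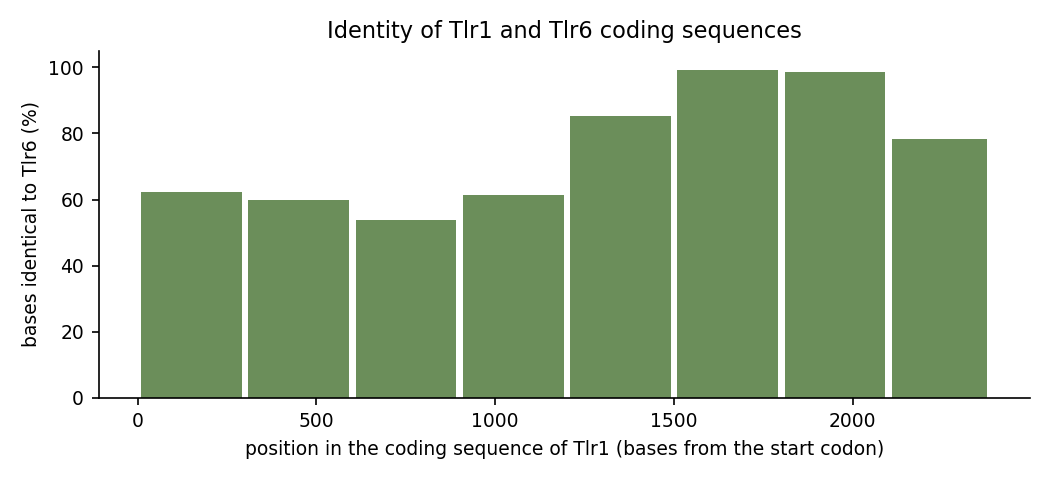
Identity of the Tlr1 and Tlr6 coding sequences in a global alignment. Each bar covers 300 bases of Tlr1 (285 in the last), its height is the percentage of those bases that were identical in Tlr6, and bases 1501 to 2100 stand at 98.7 to 99.3%.

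Tlr1, the partner of TLR2 for triacylated lipopeptides, stood at 15.3, 17.1 and 21.0 RPKM in TpMo-derived libraries, against 7.92, 7.71 and 6.90 RPKM in Ly6Chi-derived libraries. RPKM here are CPM divided by the exon length in kilobases, after the scaling between libraries that edgeR calls TMM. The groups did not overlap, and the lowest TpMo-derived library lay well above the highest Ly6Chi-derived one. The means were 17.8 ± 2.87 RPKM in TpMo-derived and 7.51 ± 0.538 RPKM in Ly6Chi-derived macrophages (SD, n = 3 each). The log2 fold change was 1.25 ± 0.15 (SE, 95% interval 0.90 to 1.59, edgeR adjusted p = 0.000607). No overlap between groups in that direction was found for 15.3% of all genes tested, and in either direction for 30.5%, so the separation alone is common in these data. The call remained in all 14 alternative analyses, with log2 fold changes from 1.11 to 1.34, and the highest adjusted p among them was that of edgeR's test against a 1.5-fold change (adjusted p = 0.0120). In bulk libraries such as these, fewer cells that carry a receptor and less of its RNA per cell cannot be told apart.

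Tlr6, the other partner of TLR2, which serves diacylated lipopeptides, did not pass the test. It stood at 12.5, 17.0 and 12.5 RPKM in TpMo-derived libraries, against 15.5, 13.2 and 18.2 RPKM in Ly6Chi-derived libraries. The groups overlapped, and the log2 fold change of -0.16 ± 0.17 (SE) had an edgeR adjusted p of 0.653. Its 95% interval of -0.53 to 0.21 lay apart from that of Tlr1, as did the interval of every other tested member but Tlr9. Tlr2 itself (ENSMUSG00000027995.10, chromosome 3, 83836272 to 83841767) stood at 24.6, 27.7 and 26.0 RPKM in TpMo-derived libraries, against 18.6, 18.7 and 25.3 RPKM in Ly6Chi-derived libraries. All TpMo-derived libraries were above 2 of the Ly6Chi-derived ones, and the third Ly6Chi-derived library lay among them. The log2 fold change was 0.32 ± 0.14 (SE, edgeR unadjusted p = 0.0419, adjusted p = 0.183). Without Ly6Chi-derived replicate 3 it was 0.48 and passed (edgeR adjusted p = 0.0461).

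The balance between the receptors of the TLR2 pairs was compared within each library, where the scaling between libraries cancels. These ratios were chosen after the values had been seen. Tlr1 stood to Tlr6 at 1.22, 1.01 and 1.68 in TpMo-derived libraries, against 0.509, 0.586 and 0.380 in Ly6Chi-derived libraries. Tlr1 was the higher of the pair in TpMo-derived replicates 1 and 3, the genes were level in TpMo-derived replicate 2, and Tlr6 was the higher in every Ly6Chi-derived library. Relative to Tlr2, Tlr1 averaged 0.682 ± 0.107 in TpMo-derived and 0.370 ± 0.0848 in Ly6Chi-derived macrophages, whereas Tlr6 averaged 0.534 ± 0.0711 and 0.752 ± 0.0724 (SD, n = 3 each). None of these 3 ratios overlapped between the groups, and they share their genes with each other. An exact permutation test, two-sided, gave p = 0.1 for each of the 3 ratios, which is the smallest that 3 against 3 libraries allow, and an adjusted p = 0.133 over 4 ratios. The fourth, Tlr7 to Tlr8, overlapped, at 0.881 ± 0.0864 in TpMo-derived and 0.764 ± 0.0882 in Ly6Chi-derived macrophages (exact permutation p = 0.2, adjusted p = 0.2).

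**Figure D2:**
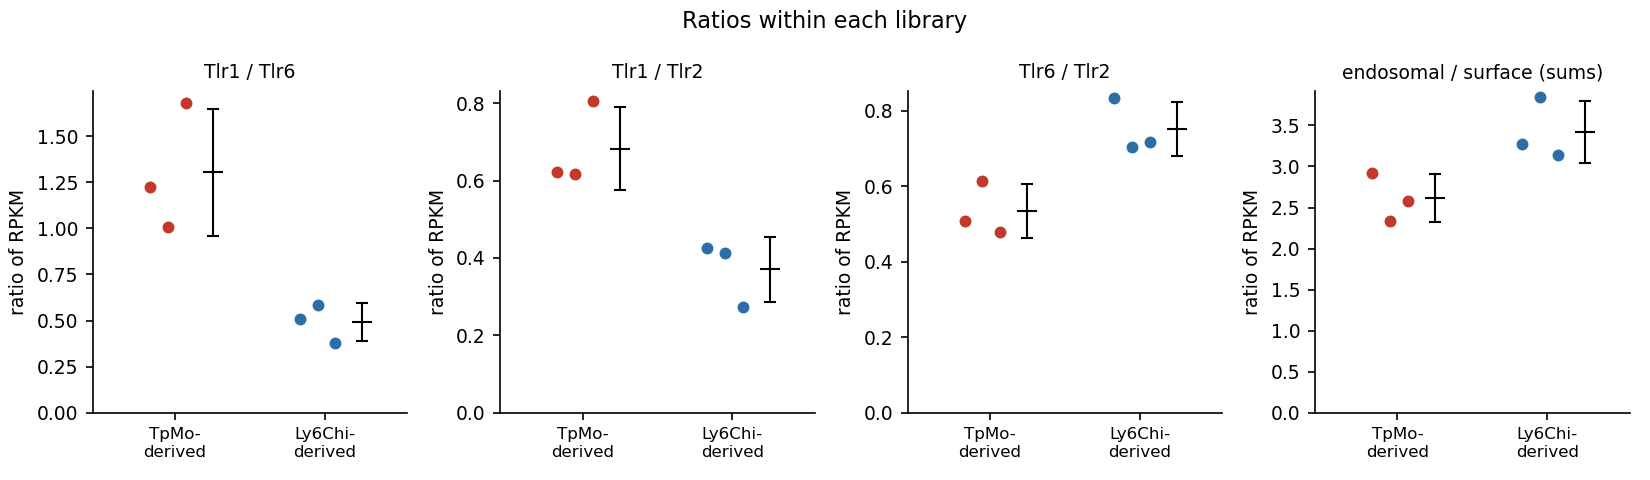
Ratios of RPKM within each library, with each point 1 library, TpMo-derived on the left and Ly6Chi-derived on the right, and black bars the mean ± SD of 3 libraries. Tlr1 over Tlr6 spans 1.01 to 1.68 in the TpMo-derived and 0.380 to 0.586 in the Ly6Chi-derived group, and summed endosomal over summed surface receptors spans 2.34 to 2.92 and 3.14 to 3.85.

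The other surface receptors showed no difference that passed. Tlr4 (ENSMUSG00000039005.13, chromosome 4, 66827584 to 66930284), the receptor for lipopolysaccharide, stood at 19.2, 20.4 and 25.2 RPKM in TpMo-derived libraries, against 21.9, 20.0 and 17.0 RPKM in Ly6Chi-derived libraries. The groups overlapped, and the log2 fold change of 0.14 ± 0.13 (SE) did not pass (edgeR adjusted p = 0.602), with a 95% interval that reaches from 0.901-fold to 1.34-fold. Tlr5 (ENSMUSG00000079164.8, chromosome 1, 182954788 to 182976044), the flagellin receptor, was close to the floor of detection. It had 32 counts in TpMo-derived replicate 2, 17 in Ly6Chi-derived replicate 2 and 0 in the other libraries, where a count of 0 allows up to 0.126 CPM (3 counts in the shallowest library), and it was not tested.

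Among the endosomal receptors Tlr13 (ENSMUSG00000033777.4, chromosome X, 106143204 to 106160493) was the most abundant. It stood at 175, 151 and 176 RPKM in TpMo-derived libraries, against 173, 191 and 171 RPKM in Ly6Chi-derived libraries. The groups overlapped, with a log2 fold change of -0.09 ± 0.07 (SE, edgeR adjusted p = 0.528). The 95% interval runs between 0.835-fold and 1.05-fold, so among the members Tlr13 has the narrowest bound on a difference. By mean RPKM over all libraries it ranked 199th of the 13140 genes tested. Its mean was 6.40 times that of Tlr2, the next member, in TpMo-derived and 8.54 times in Ly6Chi-derived macrophages.

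Tlr7 (ENSMUSG00000044583.13, 167304929 to 167330558) and Tlr8 (ENSMUSG00000040522.5, 167242696 to 167264329) lie 40599 bases apart on chromosome X. Tlr7 stood at 16.001, 17.5 and 18.5 RPKM in TpMo-derived libraries, against 16.1, 15.001 and 14.6 RPKM in Ly6Chi-derived libraries. Only the lowest TpMo-derived library reached into the range of the Ly6Chi-derived ones, and the log2 fold change of 0.19 ± 0.11 (SE) did not pass (95% interval -0.06 to 0.43, edgeR adjusted p = 0.346). Tlr8 stood at 16.6, 22.1 and 20.8 RPKM in TpMo-derived libraries, against 18.6, 20.6 and 20.8 RPKM in Ly6Chi-derived libraries. The groups overlapped, with a log2 fold change of -0.01 ± 0.13 (SE, 95% interval -0.30 to 0.27, edgeR adjusted p = 0.978).

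Tlr3 (ENSMUSG00000031639.12, chromosome 8, 45395665 to 45411080), the receptor for double-stranded RNA and itself known to be induced by interferon, was the lowest of the clearly expressed members. It stood at 2.13, 2.25 and 2.87 RPKM in TpMo-derived libraries, against 2.17, 3.25 and 4.33 RPKM in Ly6Chi-derived libraries. The Ly6Chi-derived libraries spread more widely and covered all but the lowest TpMo-derived value, and the log2 fold change of -0.43 ± 0.27 (SE) did not pass (95% interval -1.04 to 0.18, edgeR adjusted p = 0.396). Tlr9 (ENSMUSG00000045322.10, chromosome 9, 106222598 to 106226883), the receptor for CpG DNA, had 20, 0 and 4 counts in TpMo-derived libraries, against 13, 0 and 48 counts in Ly6Chi-derived libraries. With 85 counts in all, a difference could not be measured, and the 95% interval of its log2 fold change of -1.29 ran from -4.81 to 2.24 (edgeR adjusted p = 0.706). Tlr11 and Tlr12, the remaining mouse receptors of the family, had 0 counts in all 6 libraries.

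**Figure D3:**
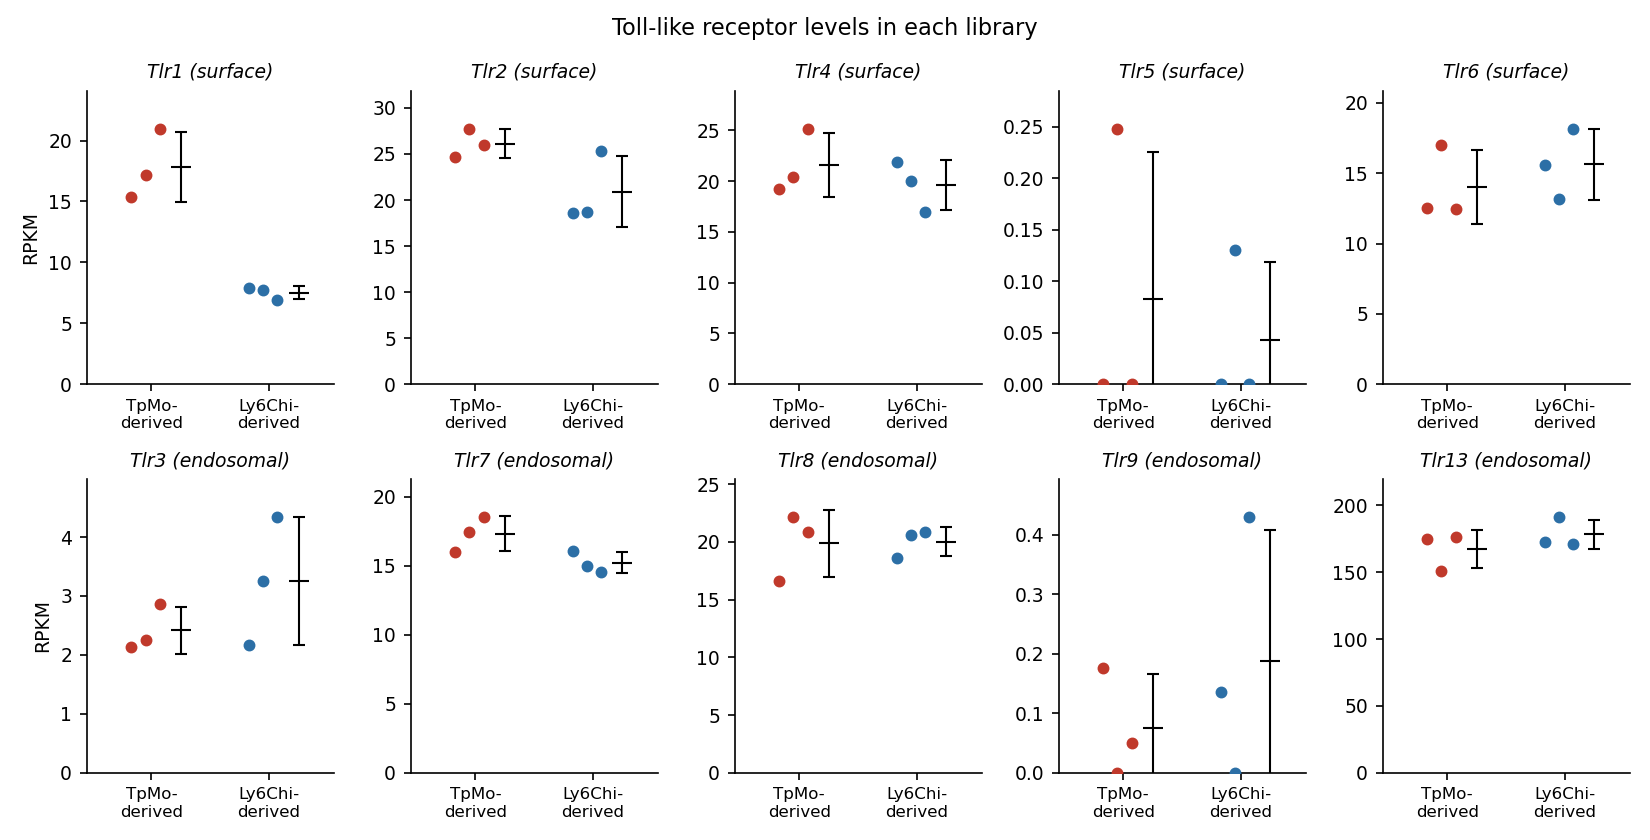
Level of each receptor in RPKM, with each point 1 library, TpMo-derived on the left and Ly6Chi-derived on the right, and black bars the mean ± SD of 3 libraries. Each panel has its own axis from 0. Only for Tlr1 do the groups stand apart, at 15.3 to 21.0 RPKM in the TpMo-derived and 6.90 to 7.92 RPKM in the Ly6Chi-derived group.

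The order of levels put Tlr13 first and Tlr3, Tlr9 and Tlr5 last in both groups, with 6 receptors in between. In TpMo-derived macrophages these ran Tlr2, Tlr4, Tlr8, Tlr1, Tlr7 and Tlr6, with means from 26.1 down to 14.0 RPKM. The ranges of neighbours in that order overlapped, although Tlr2 was above Tlr4, and Tlr7 above Tlr6, within each library. In Ly6Chi-derived macrophages they ran Tlr2, Tlr8, Tlr4, Tlr6, Tlr7 and Tlr1. There the first 5 overlapped with their neighbours, at 20.9 down to 15.2 RPKM, and Tlr1 stood separate below them and above Tlr3. Tlr9 and Tlr5 could not be ordered. Within its group, Ly6Chi-derived replicate 3 was the highest library for Tlr2, Tlr3, Tlr6, Tlr8 and Tlr9 and the lowest for Tlr1, Tlr4, Tlr7 and Tlr13.

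Set side by side, the endosomal class had 0 of 5 members higher and 0 lower (edgeR, with 0 at an unadjusted p under 0.05 and 0 by DESeq2 or limma-voom). The surface class had 1 of 4 tested members higher and 0 lower, with 2 at an edgeR unadjusted p under 0.05. Among all genes tested 6.54% rose and 5.79% fell by adjusted p. With so few members, these counts do not set the classes apart. The share of all genes at the unadjusted threshold was not counted. The median log2 fold change was -0.09 over the endosomal members and 0.23 over the surface members, where that of all genes tested was 0.01. Without Ly6Chi-derived replicate 3 the endosomal median was 0.02, so its sign rests on that library. The summed level of the endosomal receptors was 207 ± 12.9 RPKM in TpMo-derived and 217 ± 11.2 RPKM in Ly6Chi-derived macrophages, and that of the surface receptors 79.6 ± 6.89 and 63.7 ± 3.83 RPKM (SD, n = 3 each). The ratio of the 2 sums was 2.92, 2.34 and 2.58 in TpMo-derived libraries, against 3.27, 3.85 and 3.14 in Ly6Chi-derived libraries. The groups did not overlap, which held in either direction for 30.5% of single genes tested. The ratio of the groups' geometric means, TpMo-derived over Ly6Chi-derived, was 0.763. Tlr13 made up most of the endosomal sum, at a mean of 167 RPKM in TpMo-derived and 178 RPKM in Ly6Chi-derived macrophages. Without Tlr1 in the surface sum the ratio spanned 2.95 to 3.72 in the TpMo-derived and 3.50 to 4.42 in the Ly6Chi-derived group. There the groups overlapped, and the ratio of their geometric means was 0.866. Without Tlr13 and Tlr2, the most abundant member of each class, the ratio spanned 0.722 to 0.763 in the TpMo-derived and 0.814 to 0.956 in the Ly6Chi-derived group. There the groups did not overlap, and the ratio of their geometric means was 0.822. Neither the sums nor the difference between the classes was tested.

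**Figure D4:**
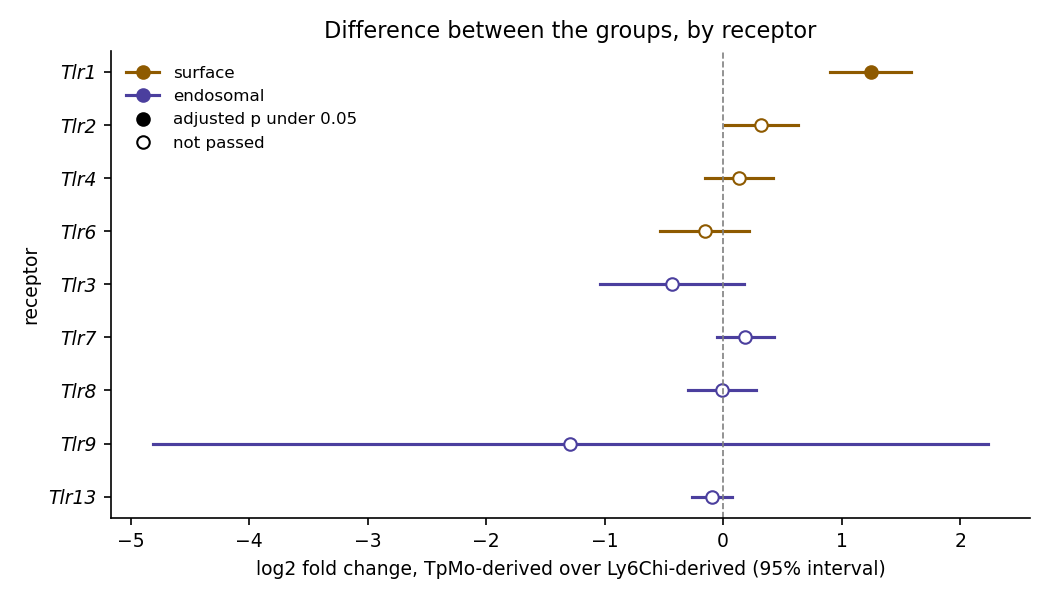
Log2 fold change of TpMo-derived over Ly6Chi-derived macrophages for the 9 receptors tested, with 95% intervals. Brown marks surface and violet endosomal receptors, and a filled point an adjusted p under 0.05. Tlr1 is the one filled point, at 1.25, and Tlr9 has the widest interval.

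Promoters were compared for Tlr1 and its neighbour Tlr6. Shown are 250 bases before to 50 after a transcription start of each from RefSeq (GRCm38.p6), on the minus strand, at chr5:64933509-64933808 for Tlr1 and chr5:64959117-64959416 for Tlr6. Capitals mark matches to GAGGAA, the core bound by the myeloid factor PU.1, or to the core of the interferon response element (GAAA, any 2 bases, GAAA), on either strand.
Tlr1 promoter: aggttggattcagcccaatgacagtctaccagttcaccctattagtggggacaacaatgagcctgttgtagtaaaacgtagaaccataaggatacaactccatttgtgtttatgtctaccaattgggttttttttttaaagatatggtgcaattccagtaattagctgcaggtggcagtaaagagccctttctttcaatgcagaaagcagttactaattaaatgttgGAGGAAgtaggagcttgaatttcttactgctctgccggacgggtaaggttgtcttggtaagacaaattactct
Tlr6 promoter: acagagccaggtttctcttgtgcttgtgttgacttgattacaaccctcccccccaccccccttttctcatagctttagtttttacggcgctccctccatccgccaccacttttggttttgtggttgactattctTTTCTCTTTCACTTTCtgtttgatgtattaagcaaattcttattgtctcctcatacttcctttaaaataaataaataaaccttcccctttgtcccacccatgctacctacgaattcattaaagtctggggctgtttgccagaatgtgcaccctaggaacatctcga
The Tlr1 promoter holds 1 match to the PU.1 core and 0 to the interferon element, and the Tlr6 promoter holds 0 and 2, which overlap each other. A further start of each gene holds neither. The window shown for Tlr6 lies inside the annotated gene. That of its further start (chr5:64959999-64960298) spans the annotated start of the gene, as the window shown for Tlr1 does. The windows shown are therefore not starts of the same kind. Of 32851 mouse promoters of this length, 28.3% hold the PU.1 core and 3.44% the interferon element. The composite element of PU.1 and interferon regulatory factors (GGAA, any 2 bases, GAAA), which can overlap either, occurs in 2.72% and in 0 of the 10 promoters matched to 8 members. The interferon element was found in 1 and the PU.1 core in 4 of these 10. Tlr4 and Tlr7 were not matched.

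By the rule for genes with a like pattern, 9001 tested protein coding genes whose mean reached 5 CPM were ranked by the correlation of their log2 CPM with that of Tlr1 over the 6 libraries. The closest were the ribosomal protein gene Rpl3, the histone chaperone gene Daxx and Ly6e (Pearson r of 0.9996, 0.999 and 0.998, log2 fold changes of 0.43, 0.76 and 0.78). The group difference enters these values, and 660 of the genes had an r above 0.9.

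Genes that serve the receptors were described from 7 lists with 63 members, all of which had enough counts to test. Of these 15 rose and 6 fell, where 12.3% of all genes tested changed, and Ly86, Unc93b1, Lgmn, Ikbke and Irf7 also passed the test against a 1.5-fold change. The lists were chosen with earlier results of these data known, so their share of calls is no test of an excess over all genes. The levels below are CPM after TMM scaling, which compare a gene between groups and not with other genes. Among co-receptors 3 of 7 rose and 1 fell. Cd14, which hands lipopolysaccharide to TLR4, rose to 581 ± 73.8 CPM in TpMo-derived macrophages, against 345 ± 29.4 CPM in Ly6Chi-derived ones (log2 fold change 0.75). Ly86, the MD-1 partner of the receptor-like protein Cd180, rose with a log2 fold change of 1.03, and Cd180 itself had 0.31 and did not pass (edgeR adjusted p = 0.0694). Ly96, the MD-2 subunit of the TLR4 complex, had 0.30 and did not pass. Rtn4, which was on this list although it is a reticulon of the endoplasmic reticulum, rose with 0.57. Cd36, a scavenger receptor that assists TLR2 with TLR6, fell by 0.50 on the log2 scale.

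Of 8 trafficking factors 3 rose and 0 fell. Unc93b1, which carries the endosomal receptors out of the endoplasmic reticulum, rose to 1207 ± 41.7 CPM in TpMo-derived macrophages, against 670.4 ± 35.4 CPM in Ly6Chi-derived ones (SD, n = 3 each). Its log2 fold change was 0.85 ± 0.06 (SE, edgeR adjusted p = 2.26e-05), while none of the 5 endosomal receptors passed. The chaperone Hsp90b1, which folds most Toll-like receptors, and Lrrc59 rose with log2 fold changes of 0.38 and 0.41. Cnpy3, a co-chaperone of Hsp90b1, and Ap3b1, a subunit of a sorting adaptor, had 0.27 and -0.05 and did not pass.

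Proteases and nucleases of the endolysosome, which cleave endosomal receptors or trim their ligands, went both ways, with 2 of 11 higher and 4 lower. Lgmn, the asparagine endopeptidase, rose to 1412 ± 117 CPM in TpMo-derived macrophages, against 615 ± 44.0 CPM in Ly6Chi-derived ones (log2 fold change 1.20). The exonucleases Pld3 and Pld4, which limit ligands of TLR9, moved in opposite directions, with log2 fold changes of 0.30 and -0.38. The cathepsins Ctss, Ctsl and Ctsh fell by 0.27, 0.29 and 0.48 on the log2 scale. The calls of Ctsl and Ctsh were lost without Ly6Chi-derived replicate 2 (edgeR adjusted p = 0.0661 and 0.0596), and that of Ctsl without TpMo-derived replicate 1 (edgeR adjusted p = 0.0721). Ctsb and the nuclease Dnase2a did not pass (log2 fold changes of -0.05 and 0.40).

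Downstream of the receptors, 2 of 6 adaptors rose and 0 fell. Pik3ap1, known as BCAP, rose with a log2 fold change of 0.61, and Myd88, the adaptor of every member but Tlr3, with 0.53 (edgeR adjusted p = 0.0164). The call of Myd88 was lost without TpMo-derived replicates 1 or 3 or Ly6Chi-derived replicates 2 or 3 (edgeR adjusted p from 0.0567 to 0.0816). Ticam1, known as TRIF and the adaptor of TLR3, and Tirap had 0.12 each and did not pass. Of 15 kinases and ubiquitin ligases 1 rose and 0 fell. DESeq2 and edgeR without TpMo-derived replicate 2 each gave 2 higher and 1 lower. Ikbke rose to 187 ± 28.8 CPM in TpMo-derived macrophages, against 87.3 ± 11.7 CPM in Ly6Chi-derived ones, and its relative Tbk1 and the scaffold Ikbkg had log2 fold changes of -0.01 and -0.04 and did not pass.

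Of 7 transcription factors 3 rose and 0 fell. Irf7, which acts below TLR7 and TLR9 and is itself induced by interferon, rose to 251 ± 45.5 CPM in TpMo-derived macrophages, against 33.5 ± 10.1 CPM in Ly6Chi-derived ones (log2 fold change 2.91 ± 0.22 SE, edgeR adjusted p = 3.38e-05). Irf5 and Irf8 rose with 0.36 and 0.37, whereas Irf3 and the NF-kB subunit Rela had 0.35 and 0.23 and did not pass. Of 9 inhibitors 1 rose and 1 fell. Tnfaip3, the deubiquitinase A20, rose with 0.78, and Tollip fell by 0.49 on the log2 scale. The call of Tnfaip3 depended on TpMo-derived replicate 3 and Ly6Chi-derived replicates 1 and 3, since without any one of them the edgeR adjusted p was 0.0562 to 0.0575. Cd300a and Cyld had log2 fold changes of -0.22 and -0.01 and did not pass.

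**Figure D5:**
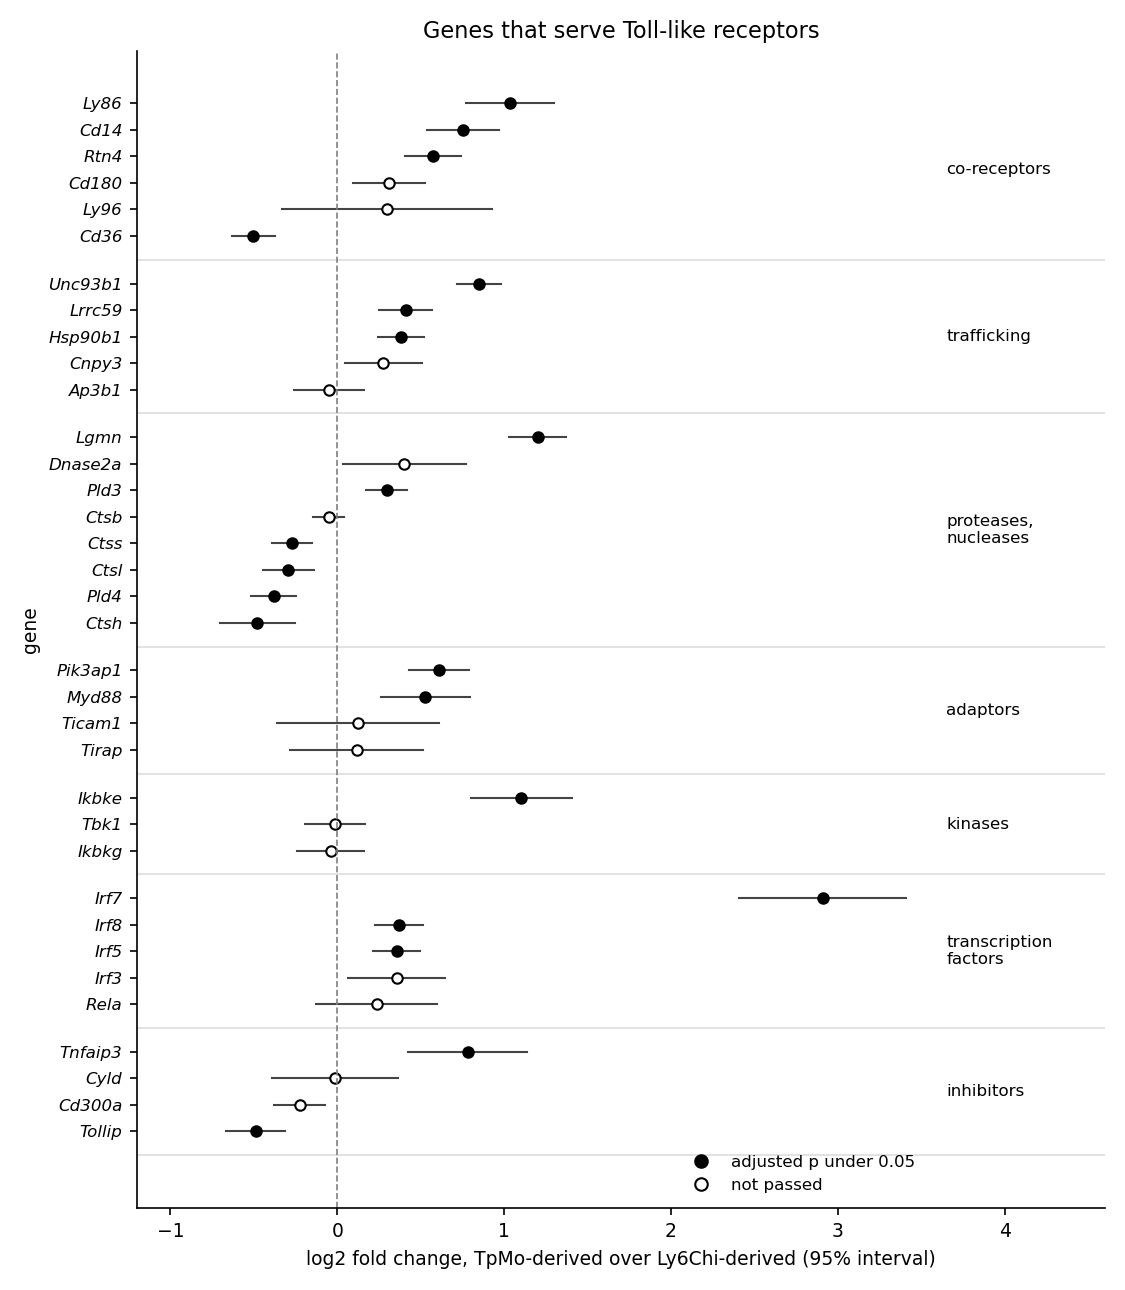
Log2 fold change of TpMo-derived over Ly6Chi-derived macrophages, with 95% intervals, for the named genes of 7 lists that serve Toll-like receptors. Filled points have an adjusted p under 0.05. Irf7 stands highest, at 2.91, and Lgmn, Ikbke and Ly86 lie between 1.03 and 1.20.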

How the data were processed

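The libraries were SMART-seq v2 libraries of total RNA, sequenced as read pairs, per the labels' protocols. The table that the authors deposited holds raw read counts. Per the file header, featureCounts 1.6.3 counted over GENCODE M22 exons with no option for pairs, strand, multi-mapped reads or overlaps, so by default each mate counted, strand was ignored and multi-mapped reads were left out. STAR and GRCm38 come from the submitters' processing notes. Symbols came from GENCODE M21 (93 of 55487 identifiers unmatched), and coordinates and exon lengths are those of the deposited table.

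Differences were fitted in R 4.3.3 by edgeR 4.0.16 (filterByExpr with a minimum count of 10 and total of 15, TMM, robust quasi-likelihood test, Benjamini-Hochberg over 13140 genes), after a check on simulated counts. Intervals of fold changes are per gene and unadjusted. Alternatives changed the scaling, filter, test (DESeq2 1.42.0, limma 3.58.1), threshold or libraries. The labels give no replicate numbers, batches or animals, so replicates are numbered in accession order and p-values measure only the spread between libraries, which may be technical. No 2 columns were identical. Floors cover counting error only. Members and lists were chosen with earlier results of these data known. Named were all members and, per list, up to 4 called genes with the smallest p and up to 2 others with the highest level, plus Ctsl and Ctsh, which were named after their values were seen.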

Additional observations from a re-analysis of the deposited data

How the results depend on the processing

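No paired analysis was possible because the labels carry no replicate numbers. Tlr1 passed in all 14 alternatives, and Tlr3, Tlr4, Tlr6, Tlr7, Tlr8 and Tlr13 in 0 of 14, Tlr9 in 0 of 13 and Tlr2 in 1. The number of receptors higher was 1 to 2 with a library left out, and the number lower was 0. With a library left out, the log2 fold change of Tlr8 ranged from -0.10 to 0.10, turning positive at 0.10 without TpMo-derived replicate 1 and at 0.02 without Ly6Chi-derived replicate 3. That of Tlr9 ranged from -2.89 to 0.16, positive without Ly6Chi-derived replicate 3. The cause was not tested. The ratio of endosomal to surface sums, TpMo-derived over Ly6Chi-derived, was 0.720 to 0.811 with a library left out and 0.822 without Tlr13 and Tlr2. Without Tlr1, chosen after seeing the data, it was 0.866. Of all genes, 1620 changed, which became 317 when tested for more than a 1.5-fold difference and 976 to 1492 with a library left out (1074 when TpMo-derived replicate 3 was dropped, or 976 to 1062 when any Ly6Chi-derived library was). The endosomal median ranged from -0.13 to 0.02 and the surface median from 0.17 to 0.29 with a library left out. Among kinases and ubiquitin ligases 2 rose with no count filter or a filter at 5 CPM, against 1, and among inhibitors 2 fell with library sizes alone, the 5 CPM filter or DESeq2, against 1. Depth limits Tlr5 and Tlr9, which had 49 and 85 counts over all libraries.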
